A study of Mus musculus with 14 samples.

Results

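Complement genes were examined in cultured primary microglia, which are macrophages that live in the brain, of TIMP2 KO and WT mouse pups. The group holds 9 genes chosen by symbol: the C1q chains C1qa, C1qb and C1qc, the components C3 and C4b, the alternative pathway proteins Cfb and Cfp, and the anaphylatoxin receptors C3ar1 and C5ar1. They are 9 of the 49315 genes counted, and all 9 passed the filter on low counts that left 15700 genes for testing. Both genotypes were on a C57BL/6 background, KO being the global TIMP2 -/- line, in which Timp2 is deleted in every tissue, and WT mice carrying the intact gene. There were 7 libraries per genotype, each from an independent isolation of microglia from the pooled forebrains of 5 pups at P6-P7, male and female together. The cells of both groups were selected on CD11b with magnetic beads, plated in culture and then collected for RNA. A library is thus the mean of a culture rather than of 1 animal, the deletion is not limited to microglia, and CD11b selection does not separate microglia from other myeloid cells.

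Complement is a cascade of plasma and tissue proteins that tag targets for uptake. In the classical pathway C1q, assembled from the products of C1qa, C1qb and C1qc, binds its target and leads to cleavage of C4 and C2, and in the alternative pathway C3b, factor B (Cfb) and the stabilising protein properdin (Cfp) form an amplifying enzyme. Both pathways cleave C3 and then C5, and the peptides C3a and C5a released from them signal through the receptors C3ar1 and C5ar1. In the brain microglia are the main source of C1q, and complement tags synapses for removal during development and in disease.

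Depth was between 38875344 and 48070236 counts per library. Timp2, which checks the genotype labels, fell by 1.92 on the log2 scale, from 464 ± 36.8 CPM in WT to 122 ± 3.14 CPM in KO (SD, n = 7 each; edgeR quasi-likelihood test, Benjamini-Hochberg adjusted p = 1.53e-12), with no overlap between genotypes. CPM here are counts relative to the library size after TMM scaling. All 12 microglia markers were tested, and their summed level was 8604 to 10517 CPM in WT and 9167 to 10947 CPM in KO. Among the microglia markers Tmem119 (1.84 to 6.27 CPM) and Siglech (1.99 to 5.86 CPM) were the lowest. KO replicate 3 had the highest CPM of the 14 libraries in C1qa, C3, C4b, Cfb and Cfp, and KO replicate 1 had the lowest in all members other than Cfp. The log2 fold changes of C1qa, C3, C4b, Cfb and Cfp are given with and without KO replicate 3.

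The 3 sequences shown are the 200 bases before the RefSeq start of C1qb, C1qc and C3, since C1qb and C1qc were the most closely coupled pair between cultures and C3 was at a far lower level and varied apart from them. All 3 genes are on the minus strand, and the stretches lie at chr4:136886201-136886400, chr4:136892915-136893114 and chr17:57228137-57228336 in GRCm38.p6. In the GENCODE M21 annotation C1qc starts at 136893065, inside its stretch, so most of that stretch lies within the gene. The 200 bases before the RefSeq start of C5ar1, searched below but not shown, also lie within its GENCODE gene. Capitals mark, for C1qb and C1qc, the letters GAGGAA (or TTCCTC on the other strand), the core bound by PU.1, a macrophage transcription factor, and for C3 the letters TTNCNNAA (or TTNNGNAA), the pattern of the C/EBP factors.
C1qb: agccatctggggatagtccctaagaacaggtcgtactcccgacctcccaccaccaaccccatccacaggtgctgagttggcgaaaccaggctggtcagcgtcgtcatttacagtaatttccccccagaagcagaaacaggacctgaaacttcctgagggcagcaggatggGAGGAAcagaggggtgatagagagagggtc
C1qc: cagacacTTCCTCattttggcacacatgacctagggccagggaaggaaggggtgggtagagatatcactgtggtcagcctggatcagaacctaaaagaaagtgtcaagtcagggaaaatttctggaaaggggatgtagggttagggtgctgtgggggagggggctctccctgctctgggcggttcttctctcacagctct
C3: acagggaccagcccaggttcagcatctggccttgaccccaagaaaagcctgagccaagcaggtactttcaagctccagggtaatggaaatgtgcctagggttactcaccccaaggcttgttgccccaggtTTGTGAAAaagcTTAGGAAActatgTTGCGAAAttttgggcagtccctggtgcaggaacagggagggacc
In the 300-base windows searched on both strands, which reach 50 bases past the start, GAGGAA matched 1 time each in C1qb and C1qc, 2 times in Cfp and not in C3, C3ar1 or C5ar1, and 28.3% of all 32851 RefSeq promoter windows hold at least 1. TTNCNNAA matched 3 times in C3, 1 time each in C1qc and C5ar1 and not in C1qb, Cfp or C3ar1, and 40.7% of all windows hold at least 1 match. TTCNNNGAA, the pattern bound by STAT factors and found in 8.30% of all windows, matched in none of these 6 members, which are those the promoter table holds. In these RefSeq windows the matches did not follow the level, since Cfp was far below C3ar1 and C5ar1, which had no GAGGAA. These matches are descriptions of the letters, and no binding was measured.

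Levels of different genes are compared per kilobase of exon (RPKM), averaged over the 14 libraries. C1qb (1479 RPKM), C1qa (1318 RPKM) and C1qc (1028 RPKM) were the highest of the 9, above at least 99.81% of all tested genes. C3ar1 followed at 493 RPKM and C5ar1 at 163 RPKM, above 99.66% and 98.52% of tested genes. The other components were far lower, with Cfp at 9.61 RPKM, C3 at 3.73 RPKM, C4b at 1.04 RPKM and Cfb at 0.426 RPKM. They lay above 71.5%, 52.0%, 32.3% and 20.7% of tested genes, respectively. In this order C1qb and C1qa, C1qa and C1qc, Cfp and C3, and C4b and Cfb had overlapping ranges over the 14 libraries, and each of the other neighbours did not. In bulk RNA a smaller number of cells of a type and less RNA per cell cannot be told apart.

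The order within C1q turns on the gene length, and that at the low end on bases shared between genes. By the longest annotated transcript, in place of all exonic bases, C1qc had 1649 RPKM and was the highest of the C1q genes. Of the 2825 exonic bases of Cfb, 2246 are shared with Gm20547, which had 2 counts in all libraries together. Reads on the shared bases may have been discarded in counting, which would lower the counts of Cfb and was not tested. Over the 579 bases it does not share, Cfb had 2.08 RPKM, above C4b, an alternative chosen after seeing the data. In C4b 35.2% of the 50-base stretches and 8.26% of the 150-base stretches of its longest transcript are identical in C4a, a near copy 65.2 kb away on chromosome 17, so part of its reads may be split between the copies or discarded.

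**Figure D1:**
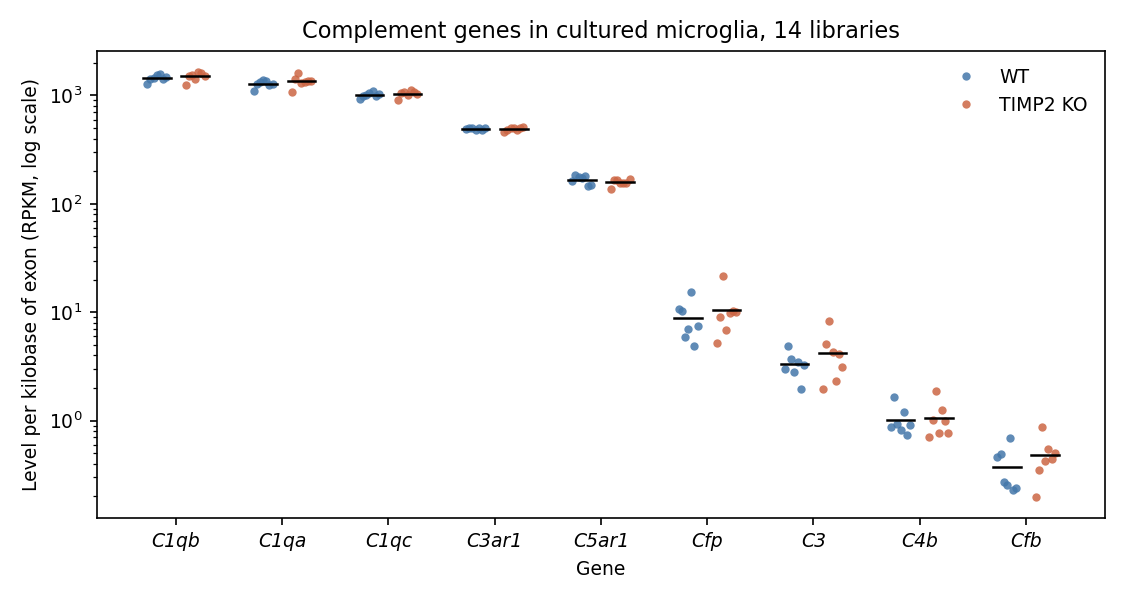
Level of each gene per kilobase of exon (RPKM, log scale) in the 14 libraries, with points for single WT and KO libraries and a black line at each genotype mean. The C1q genes sit near the top at about 1028 RPKM to 1479 RPKM, the receptors below them and the other components lowest, and the genotypes overlap for every gene.

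The C1q genes lie side by side on chromosome 4, all on the minus strand, by the GENCODE M21 annotation of GRCm38, which gives every gene position here. C1qb (ENSMUSG00000036905) lies from 136880129 to 136886187, C1qc (ENSMUSG00000036896) from 136889804 to 136893065 and C1qa (ENSMUSG00000036887) from 136895917 to 136898803. The gap is 3.616 kb between C1qb and C1qc and 2.851 kb between C1qc and C1qa.

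C1qa encodes the A chain of C1q. Its lowest, median and highest CPM were 1143, 1333 and 1457 in WT and 1111, 1415 and 1669 in KO. The genotypes overlapped over most of their range, with KO replicate 1 lowest and KO replicate 3 highest. The means were 1336 ± 104 CPM in WT and 1405 ± 167 CPM in KO (SD, n = 7 each), with a log2 fold change of 0.073 (SE 0.0736, 95% interval -0.084 to 0.23) and an adjusted p of 0.943 by the edgeR quasi-likelihood test with Benjamini-Hochberg adjustment, the source of every adjusted p given for a gene. The log2 fold change was 0.026 without KO replicate 3 and, without KO replicate 1, 0.12.

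C1qb encodes the B chain. Lowest, median and highest CPM were 1391, 1589 and 1729 in WT and 1374, 1659 and 1793 in KO. KO replicate 1 was the lowest and KO replicate 5 the highest of the 14, and the other libraries of the genotypes were interleaved. Means were 1585 ± 106 CPM in WT and 1633 ± 141 CPM in KO (SD, n = 7 each), and edgeR gave a log2 fold change of 0.043 (SE 0.0580, 95% interval -0.081 to 0.17) and an adjusted p of 0.946.

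C1qc encodes the C chain. In WT the lowest, median and highest CPM were 1808, 1969 and 2105, and in KO 1766, 2036 and 2148. The same pair, KO replicates 1 and 5, marked the ends of the range, and the genotypes overlapped. Its means were 1957 ± 97.4 CPM in WT and 2011 ± 129 CPM in KO (SD, n = 7 each), with a log2 fold change of 0.039 (SE 0.0449, 95% interval -0.057 to 0.14) and an adjusted p of 0.943 in edgeR.

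Together the 3 genes held 0.488% ± 0.0301 of the scaled counts in WT and 0.505% ± 0.0406 in KO (SD, n = 7 each), and no library lay outside 0.425 to 0.544%. Per kilobase, C1qa gave 34.2% ± 0.682 of the C1q RPKM in WT and 34.6% ± 1.87 in KO, C1qb 38.8% ± 0.36 and 38.6% ± 1.29, and C1qc 27.0% ± 0.593 and 26.8% ± 0.780. The shares of the 3 chains thus differed between the genotypes by less than the SD of the KO libraries.

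C3, the component on which the pathways converge, lies on chromosome 17 from 57203970 to 57228136 (ENSMUSG00000024164, minus strand), and C4b (ENSMUSG00000073418, minus strand), which encodes C4, on chromosome 17 from 34728380 to 34743882. C3 had 10.0, 16.8 and 25.2 CPM in WT and 10.0, 21.1 and 42.3 CPM in KO as lowest, median and highest values. KO replicate 3 lay far above the rest, and the other KO libraries fell within or near the WT range. Its means were 16.9 ± 4.64 CPM in WT and 21.4 ± 10.9 CPM in KO (SD, n = 7 each), and edgeR gave a log2 fold change of 0.34 (SE 0.277, 95% interval -0.25 to 0.93) and an adjusted p of 0.943. Without KO replicate 3 the log2 fold change was 0.080.

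C4b was low, with 159 to 451 counts per library. The lowest, median and highest values were 4.20, 5.21 and 9.46 CPM in WT and 4.06, 5.69 and 10.7 CPM in KO. WT replicate 2 and KO replicate 3 stood above the other libraries, and the genotypes overlapped. Its means were 5.81 ± 1.81 CPM in WT and 6.02 ± 2.31 CPM in KO (SD, n = 7 each), and edgeR gave a log2 fold change of 0.051 (SE 0.227, 95% interval -0.43 to 0.54) and an adjusted p of 0.984. Without KO replicate 3 the log2 fold change turned to -0.15.

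Cfb (ENSMUSG00000090231, chromosome 17 from 34856374 to 34862518, minus strand) encodes factor B, the protease of the alternative pathway, and lies 85 bases from C2. It had 22 to 104 counts per library, so its values rest on few reads. Lowest, median and highest CPM were 0.650, 0.762 and 1.95 in WT and 0.562, 1.26 and 2.46 in KO. The genotypes overlapped, with KO replicate 1 lowest and KO replicate 3 highest of the 14. Means were 1.06 ± 0.497 CPM in WT and 1.35 ± 0.586 CPM in KO (SD, n = 7 each), and edgeR gave a log2 fold change of 0.34 (SE 0.315, 95% interval -0.33 to 1.01) and an adjusted p of 0.943. Without KO replicate 3 the log2 fold change was 0.13.

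Cfp (ENSMUSG00000001128, chromosome X from 20925454 to 20931555, minus strand) encodes properdin, which stabilises the alternative pathway enzyme. In WT the lowest, median and highest CPM were 8.38, 13.0 and 26.9, and in KO 9.06, 16.9 and 37.7. KO replicate 3 and WT replicate 5 were highest in their genotypes, and the ranges overlapped. Its means were 15.2 ± 6.32 CPM in WT and 18.1 ± 9.26 CPM in KO (SD, n = 7 each), with a log2 fold change of 0.25 (SE 0.300, 95% interval -0.39 to 0.89) and an adjusted p of 0.944 in edgeR. Without KO replicate 3 the log2 fold change turned to -0.041.

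C3ar1 (ENSMUSG00000040552, chromosome 6 from 122847138 to 122856161, minus strand) encodes the receptor for C3a. Its lowest, median and highest CPM were 2067, 2139 and 2169 in WT and 1999.8, 2158 and 2182 in KO. The libraries of both genotypes lay within a narrow band, the highest being 1.09 times the lowest, and 2.22% of tested genes had a smaller SD of log2 CPM within genotypes. The means were 2119 ± 39.0 CPM in WT and 2124 ± 68.3 CPM in KO (SD, n = 7 each), with a log2 fold change of 0.0034 (SE 0.0270, 95% interval -0.054 to 0.061) and an adjusted p of 0.990 in edgeR. The sign of its log2 fold change turned with upper-quartile scaling.

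C5ar1 (ENSMUSG00000049130, chromosome 7 from 16246743 to 16259540, minus strand) encodes the receptor for C5a, next to C5ar2 at a distance of 2.588 kb. Lowest, median and highest CPM were 373, 445 and 471 in WT and 355, 400.2 and 436 in KO. The genotypes overlapped, though the KO libraries lay lower on average. Means were 431 ± 39.8 CPM in WT and 406 ± 27.8 CPM in KO (SD, n = 7 each), and edgeR gave a log2 fold change of -0.086 (SE 0.0596, 95% interval -0.21 to 0.041) and an adjusted p of 0.943.

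Of the 9 genes, 0 passed an adjusted p of 0.05 in edgeR, against a background of 0.0191% of all tested genes (3 genes, Timp2 among them). At an unadjusted p under 0.05, 0 of the 9 passed against 3.37% of tested genes, and 0 passed either threshold in DESeq2 or in any of the other fits tried, 22 fits in all. The log2 fold change was above 0 for 8 of 9 genes with TMM scaling and for 7 with upper-quartile scaling, where C3ar1 changed sign, against 50.8% and 43.0% of all tested genes. It was above 0 for 5 of 9 without KO replicate 3, against 49.7% of all tested genes, and with the astrocyte marker level as a covariate for 6 of 9, against 50.6%. The median was 0.051 for the 9 and 0.0016 for all tested genes, and without KO replicate 3 the median of the 9 was 0.026. Leaving out KO replicate 1 moved it the other way, to 0.12. The log2 fold change was then above 0 for 8 of 9, against 49.0% of all tested genes. The 95% intervals were narrow for C3ar1 (-0.05 to 0.06) and C1qc (-0.06 to 0.14) and reached 1.01 for Cfb and 0.93 for C3, so changes within these intervals could not be told from 0.

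**Figure D2:**
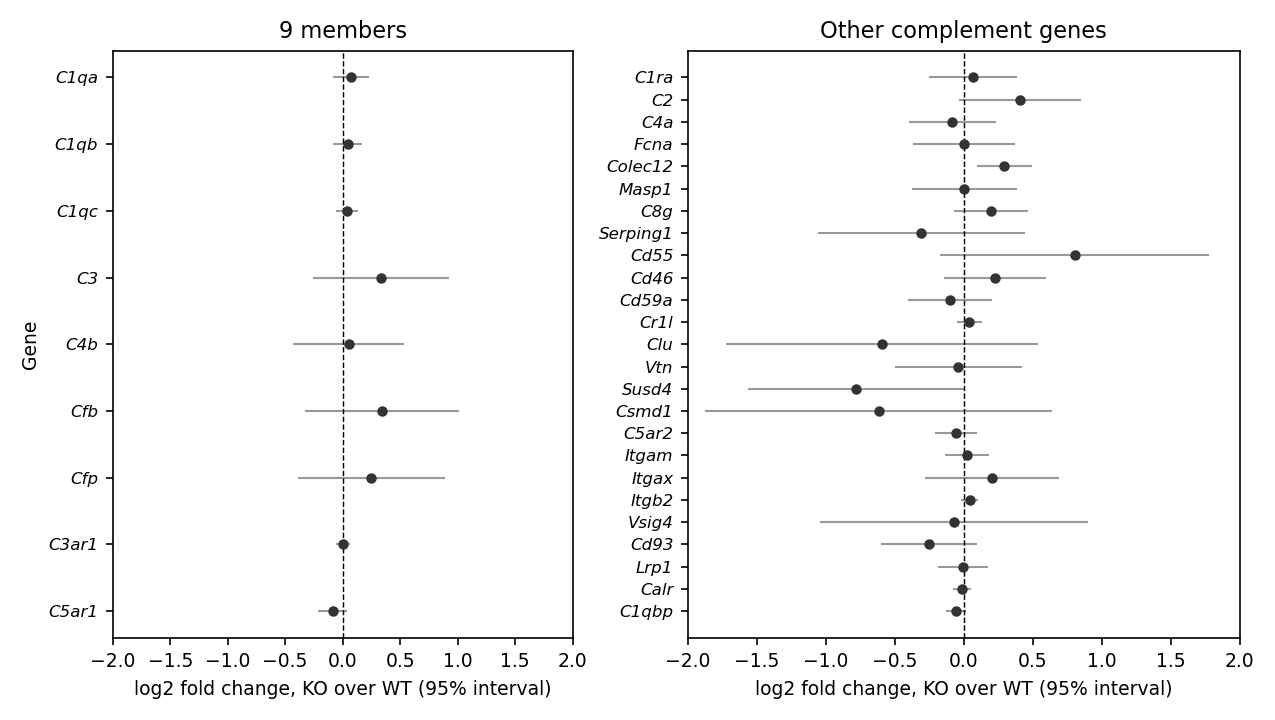
Log2 fold changes of KO over WT (points) with 95% intervals (bars) for the 9 genes on the left and 25 of the other complement genes tested on the right. The intervals of all 9 genes cover 0, and they are narrow for C1qa, C1qb, C1qc, C3ar1 and C5ar1 and wide for C3, C4b, Cfb and Cfp.

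The balance between members was compared as log2 ratios of counts within a library, which do not depend on scaling, in 5 ratios tested by two-sided exact permutation over 3432 splits. The ratio of C1qc to C1qb was 0.306 ± 0.0343 in WT and 0.303 ± 0.0404 in KO (SD, n = 7 each, exact p = 0.889, adjusted p = 0.889). For C3 over C4b the values were 1.55 ± 0.205 and 1.76 ± 0.551 (exact p = 0.367, adjusted p = 0.611). C3ar1 over C5ar1 gave 2.30 ± 0.134 in WT and 2.39 ± 0.0746 in KO (exact p = 0.161, adjusted p = 0.611). The KO minus WT difference was 0.027 for C1qa over C1qb (exact p = 0.628, adjusted p = 0.785) and -0.13 for Cfp over Cfb (exact p = 0.353, adjusted p = 0.611). None of the 5 differences passed adjustment.

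**Figure D3:**
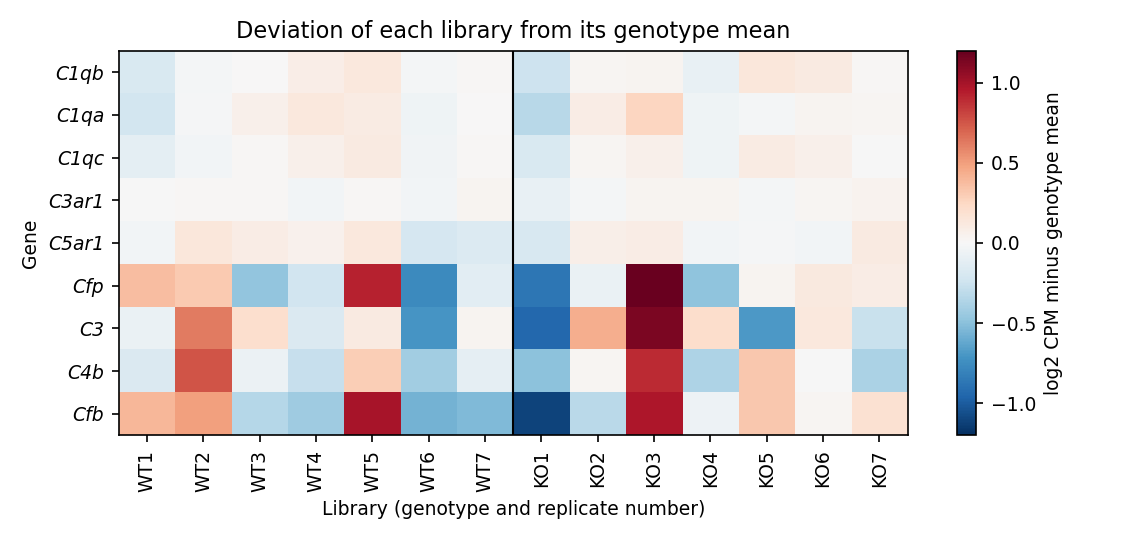
Deviation of each library from its genotype mean in log2 CPM, with genes in rows and libraries in columns (7 WT, then 7 KO, divided by a black line), red above and blue below the mean. KO replicate 3 is far above its genotype mean for C3, C4b, Cfb and Cfp, at 1.13, 0.90, 0.97 and 1.19, with WT replicate 5 at 0.99 for Cfb, while C3ar1 hardly varies.

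Between cultures of a genotype the members fell into sets that varied to different extents. The SD of log2 CPM within genotypes was 0.0382 for C3ar1, 0.0847 for C1qc, 0.115 for C1qb, 0.120 for C5ar1 and 0.150 for C1qa. It was 0.445 for C4b, 0.574 for C3, 0.604 for Cfp and 0.626 for Cfb, above the SD of 81.3% or more of tested genes. The highest library had 4.50 times the lowest in Cfp and 4.23 times in C3, against 1.22 times in C1qc.

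How members moved together was measured as the correlation of their deviations from the genotype means over the 14 libraries, for all 36 pairs, with 100000 permutations within genotype and Benjamini-Hochberg adjustment. All points of a pair share their libraries and scaling. The correlation was positive in all 36 pairs, with a median r of 0.547 and a range of 0.252 to 0.976. By r, 7 pairs passed adjustment, and 6 of them also by rho.

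C1qb and C1qc moved most closely (r = 0.976, p = 1e-05, the smallest these permutations can give, adjusted p = 3.60e-04, and rho = 0.969, permutation p = 1e-05, adjusted p = 3.60e-04). Without KO replicate 1 and WT replicate 1, the libraries farthest from the median of C1qb, r was 0.942. C1qa was coupled to C1qc (r = 0.844, permutation p = 6.50e-04, adjusted p = 0.00780, and rho = 0.771, permutation p = 0.00290, adjusted p = 0.0283) and to C1qb (r = 0.792, permutation p = 0.00429, adjusted p = 0.0257, and rho = 0.710, permutation p = 0.00758, adjusted p = 0.0455). Without the same libraries, the farthest from the median of C1qa, these fell to 0.543 and 0.340. For C1qa and C1qb, r was 0.952 within WT and 0.715 within KO. KO replicate 3 was high in C1qa and not in C1qb, and without it r was 0.879 for C1qa and C1qb.

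Another set joined the alternative pathway genes and C4b. Cfb and Cfp moved together (r = 0.920, permutation p = 9.00e-05, adjusted p = 0.00162, and rho = 0.912, permutation p = 7.00e-05, adjusted p = 0.00126), with r = 0.879 without KO replicate 1 and KO replicate 3. C4b was correlated with Cfp (r = 0.779, permutation p = 0.00306, adjusted p = 0.0248, and rho = 0.727, permutation p = 0.00583, adjusted p = 0.0420) and with Cfb (r = 0.746, permutation p = 0.00344, adjusted p = 0.0248, and rho = 0.719, permutation p = 0.00314, adjusted p = 0.0283). Without KO replicate 3 and WT replicate 2 these were 0.697 and 0.651, and without KO replicate 3 alone they were 0.640 and 0.649. C3 passed with C5ar1 by r alone (r = 0.634, permutation p = 0.00912, adjusted p = 0.0469, and rho = 0.560, permutation p = 0.0342, adjusted p = 0.0939), with r = 0.529 without KO replicate 1 and KO replicate 3. With C4b, C3 had r = 0.695, permutation p = 0.0112, adjusted p = 0.0504, and rho = 0.675, permutation p = 0.0196, adjusted p = 0.0681. For this pair r was 0.419 without KO replicate 1 and KO replicate 3, and 0.503 without KO replicate 3 alone. C1qb and C3 had the lowest r of all pairs, 0.252 (rho = 0.130, permutation p = 0.449 and 0.683, adjusted p = 0.449 and 0.683), and without KO replicate 1 and WT replicate 1 r was -0.230.

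**Figure D4:**
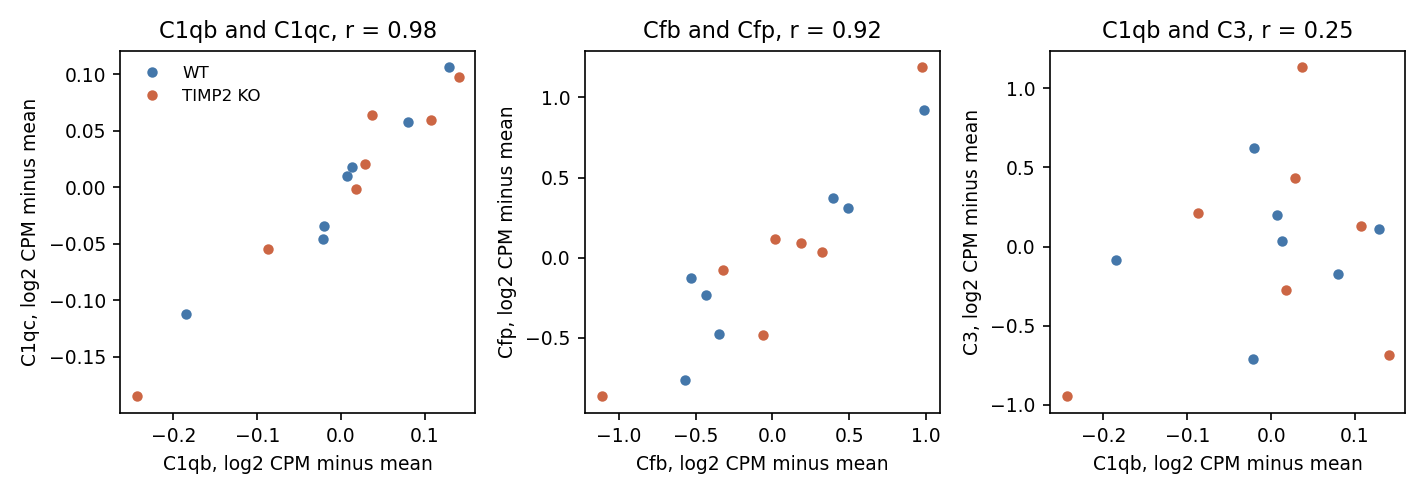
Deviations from the genotype mean (log2 CPM) of 3 pairs of genes, with 1 point per library and WT and KO in separate colours. C1qb and C1qc lie close to a line (r = 0.98), Cfb and Cfp nearly so (r = 0.92), and C1qb and C3 are widely scattered (r = 0.25).

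Astrocytes also make C3 and C4b, so the level of other cells was set beside the members. Of 12 astrocyte markers 11 were tested, and their summed level was 40.5 to 314 CPM in WT and 34.8 to 164 CPM in KO. All 11 had a log2 fold change below 0, with a median of -0.73, and 0 passed adjustment in edgeR or DESeq2, with 1 at an unadjusted p under 0.05 in edgeR. Against this level the r of the 9 members lay between -0.630 for Cfb (permutation p = 0.0219, adjusted p = 0.0985 over 18 relations; rho = -0.569, permutation p = 0.0473, adjusted p = 0.638; r = -0.486 without KO replicate 5 and WT replicate 5) and -0.0062 for C1qa (permutation p = 0.983, adjusted p = 0.983). C3 (r = -0.146, rho = -0.191, permutation p = 0.627 and 0.520, adjusted p = 0.983 and 0.718) and C4b (r = -0.416, rho = -0.464, permutation p = 0.154 and 0.107, adjusted p = 0.462 and 0.638) both had r below 0, and none of the 9 passed adjustment.

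With the microglia marker level the highest r were those of C1qb (0.727), C1qc (0.642) and C1qa (0.640), each with an adjusted permutation p of 0.0852. Their rho were 0.402, 0.349 and 0.336 (adjusted permutation p = 0.638 each). Without KO replicate 1 and WT replicate 1 the r were 0.191, 0.0763 and -0.0762, so these relations rest on those libraries.

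KO replicate 3, in which C3, C4b, Cfb and Cfp were highest, had the highest summed level of the neutrophil and monocyte list, 20.4 CPM, in a list that spanned 2.55 to 13.7 CPM in WT and 4.36 to 20.4 CPM in KO. Of its 8 markers 3 were tested, and Ly6g, Mpo, Elane, Ly6c2 and Plac8 were under 1 CPM in all libraries. It was also the next to highest of the 14 in the border macrophage list (843 CPM, in 481 to 921 CPM in WT and 534 to 843 CPM in KO), in which Lyve1 and Cd163 were under 1 CPM throughout. Its astrocyte level was low, at 56.0 CPM. The part of these cells in the members' levels was not tested. The remaining lists were low: oligodendrocyte lineage 153 to 207 CPM in WT and 146 to 189 CPM in KO, neuron 29.6 to 64.2 CPM in WT and 23.8 to 55.0 CPM in KO, endothelial 35.4 to 56.2 CPM in WT and 44.5 to 65.5 CPM in KO, and fibroblast and pericyte 5.47 to 23.6 CPM in WT and 3.80 to 17.2 CPM in KO.

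Of the 48 other complement genes listed, 26 passed the filter: 3 of 6 classical proteases and C4 genes, 3 of 9 of the lectin pathway, 1 of 7 terminal components, 10 of 15 regulators and 9 of 10 receptors, while Cfd, the only other gene of the alternative pathway listed, did not. The 22 untested genes had at most 21 counts in any library, the highest being C1s1, a protease of the C1 complex. None of the 26 passed adjustment in edgeR or in the other fits. At an unadjusted p under 0.05, 1 of 26 passed in edgeR (3.85%, against 3.37% of all tested genes) and 5 of 26 with the replicate number as a block (against 5.87%). DESeq2 and the fit with no filter on low counts also took in the untested genes. Of all 48 they gave 2 (against 2.04%) and 4 (against 3.83%), and DESeq2 with the block 3 (against 1.65%). These shares of the 48 were also above those of all tested genes. The log2 fold change was above 0 for 11 of 26, with a median of -0.0033.

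The gene at an unadjusted p under 0.05 in edgeR was Colec12, a scavenger receptor of the collectin family. It had 155, 195 and 206 CPM in WT and 170.2, 229.8 and 276 CPM in KO as lowest, median and highest values. The ranges overlapped, and the means were 189 ± 19.3 CPM in WT and 232 ± 34.3 CPM in KO (SD, n = 7 each), with a log2 fold change of 0.29 (SE 0.0926, 95% interval 0.096 to 0.49) and an adjusted p of 0.943 in edgeR (unadjusted p = 0.00636). Among the receptors and binding proteins, Calr (calreticulin, a C1q-binding protein at 347 RPKM) had 1004 ± 26.9 CPM in WT and 997 ± 42.6 CPM in KO (SD, n = 7 each), and Lrp1, its partner at 209.9 RPKM, had 3725 ± 532 CPM in WT and 3713 ± 305 CPM in KO (SD, n = 7 each). Both genes had overlapping genotypes and log2 fold changes near 0, at -0.011 and -0.0046.

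Of the regulators, Cr1l (Crry, a membrane regulator of C3 cleavage) had 78.0 ± 3.72 CPM in WT and 80.2 ± 5.39 CPM in KO (SD, n = 7 each). Susd4, another membrane regulator, was low, with 0.612 ± 0.274 CPM in WT and 0.353 ± 0.184 CPM in KO (SD, n = 7 each) and a log2 fold change of -0.78 (SE 0.368, 95% interval -1.57 to 0.0019) and an adjusted p of 0.943. Among the early components, C2, the protease that acts with C4, had 21.5 ± 8.73 CPM in WT and 28.5 ± 5.08 CPM in KO (SD, n = 7 each) and a log2 fold change of 0.41 (SE 0.208, 95% interval -0.037 to 0.85) and an adjusted p of 0.943, and it shares exonic bases with Gm20547. C1ra, a protease of the C1 complex, had 2.41 ± 0.578 CPM in WT and 2.52 ± 0.404 CPM in KO (SD, n = 7 each), and C4a 1.08 ± 0.193 CPM in WT and 1.02 ± 0.175 CPM in KO (SD, n = 7 each). In the lectin and terminal groups, Fcna (ficolin A) had 3.80 ± 0.955 CPM in WT and 3.81 ± 0.923 CPM in KO (SD, n = 7 each) and C8g, a chain of C8, 2.21 ± 0.294 CPM in WT and 2.53 ± 0.457 CPM in KO (SD, n = 7 each), and their log2 fold changes were -0.00072 and 0.20.

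The genes whose deviations most resembled those of a member were taken from all tested genes by r over the 14 libraries, a description with no test, since the highest of many are shown. Closest to the mean of C1qa, C1qb and C1qc were 1600014C10Rik (r = 0.936), Bin2 (0.926), Hfe (0.925), Slc7a7 (0.914) and Prdx5 (0.914). Closest to C3 were Acod1 (r = 0.982), which makes itaconate in activated macrophages, Nfkb2 (0.953) and Relb (0.930), both NF-kB family members, Lox (0.948) and H2-M2 (0.937). C4b was closest to Man1a (r = 0.933), Slc12a7 (0.923), Gas7 (0.922), Rassf2 (0.921) and Clec4a3 (0.897). KO replicate 3 was the highest library of C3 and of C4b, and all these r include it.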

How the data were processed

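The authors deposited raw counts per Ensembl gene for 14 libraries (7 KO, 7 WT), with no normalization. Per the submitters' processing notes the tools were Trimmomatic 0.36, STAR 2.5.2b, featureCounts of Subread 1.5.2 and DESeq2, with GRCm38. The strand setting, the annotation release and the batch covariate of the study are not given in the sources used here. Without strand, reads of a gene and of an overlapping gene cannot be told apart. Symbols, positions and exonic lengths were taken from GENCODE M21 (GRCm38), which matched 49056 of 49315 genes, and promoter sequences from RefSeq (GRCm38.p6).

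Depth was 41538291 to 48070236 counts in WT and 38875344 to 45623039 in KO. Low genes were left out with filterByExpr (a count of at least 10 in enough libraries, 15 in total). After TMM scaling, KO was compared with WT by the two-sided quasi-likelihood test (edgeR 4.0.16, R 4.3.3) with Benjamini-Hochberg adjustment over the 15700 tested genes and a threshold of 0.05. Log2 CPM used a prior count of 1. DESeq2 1.42.0 was an alternative, run on the 34582 genes with any count. Ratios were tested by exact permutation, and correlations by 100000 permutations within genotype, with scipy 1.17.1 and numpy 2.4.6 under Python 3.11.15. Groups and replicate numbers came from the labels, each library being an independent isolation from pooled pups. No pair of libraries agreed within sampling noise.

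The members and gene lists were chosen with earlier results of these data known. The text names the 9 members, Timp2, C4a, the 2 other complement genes with the highest level per kilobase in each role, the 3 with the smallest p, and the 5 genes most like C1q, C3 and C4b. Of these, 1 gene is not reported here. C1s1 and the overlapping genes were named after their values were seen. Alternatives covered the scaling, the filter, the tool, a replicate block, an astrocyte marker covariate, the gene length and each library left out.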

Additional observations from a re-analysis of the deposited data

Results flagged for a closer look

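In WT replicate 1 the log2 ratio of C1qc to C1qb was 0.379, the highest of the 7 WT libraries and above the next at 0.312. Its gap to the nearest library was 0.696 of the whole range of the group, above Dixon's 95% critical value of 0.568 for 7 libraries. It was 1 of 28 groups of 7 libraries examined, and chance alone marks about 1 in 20. C1qb was lowest in this library among the WT cultures, at 1391 CPM, and C1qc also, at 1808 CPM.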

How the results depend on the processing

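All 9 members stayed below the threshold in all 22 fits, and their lowest adjusted p over the alternatives was 0.684 (edgeR, for Cfb without WT replicate 5). Over all tested genes 3 were called in edgeR, 3 with the replicate block, 16 in DESeq2 and 26 in DESeq2 with the replicate block, and 3 to 4 with a library left out, the highest without KO replicate 4; the cause was not tested. The labels do not say whether libraries of the same replicate number share a batch. Same-numbered libraries correlated at -0.196 to 0.743 (mean 0.103, against -0.016 for other pairs), and 1 of 7 KO libraries correlated best with its own number. The block lowered the SE for C1qa (0.0736 to 0.0472) and C1qb (0.0580 to 0.0348) and raised it for Cfb (0.315 to 0.336) and Cfp (0.300 to 0.321). With the block 5.87% of all tested genes had an unadjusted edgeR p under 0.05, against 3.37% without it. The block moved no member past the threshold. Signs near 0 turned. C3ar1 had a log2 fold change of -0.010 with upper-quartile scaling, -0.0017 without the filter, -0.0047 with the astrocyte covariate and -0.0056 (WT replicate 4) to 0.015 (KO replicate 1) with a library left out. C4b gave -0.089 with that covariate and -0.15 (KO replicate 3) to 0.21 (WT replicate 2) with a library left out, also turning without WT replicate 6, and Cfp gave -0.041 (KO replicate 3) to 0.45 (WT replicate 5). Cfb gave 0.11 and Cfp 0.073 with the covariate. With a library left out Cfb gave 0.13 (KO replicate 3) to 0.56 (WT replicate 5), C3 0.080 (KO replicate 3) to 0.46 (WT replicate 2), C1qa 0.026 (KO replicate 3) to 0.12 (KO replicate 1), C1qb 0.016 (WT replicate 1) to 0.078 (KO replicate 1) and C1qc 0.023 (KO replicate 5) to 0.066 (KO replicate 1). With a library left out the KO minus WT log2 ratio of C1qa over C1qb was -0.0097 (KO replicate 3) to 0.054 (KO replicate 5). The other ratios gave -0.013 to 0.0093 for C1qc over C1qb, 0.11 to 0.38 for C3 over C4b, 0.066 to 0.12 for C3ar1 over C5ar1 and -0.18 to -0.060 for Cfp over Cfb. With the astrocyte level, r became 0.012 (RLE factors) and 0.035 (summed CPM) for C1qa and 0.0041 (summed CPM) for C5ar1. With the summed microglia level, 2 members passed adjustment (C1qb, r = 0.823, and C1qc, r = 0.754), and r became -0.034 for C3, 0.119 for Cfb, 0.138 for Cfp and -0.012 for C5ar1. C3 with C4b passed with RLE factors (r = 0.698). Cfb, at 22 to 104 counts per library, rests on the fewest reads.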
